A study of Bos indicus x Bos taurus with 78 samples.

Results

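The 4 steers whose carcasses were labelled dark-cutters of degree 2/3 were compared with the 53 normal steers of the same study, out of 78 steers in all. Members were chosen by the phenotype label alone, and all 4 had a library. Every animal was a male Bos indicus x Bos taurus steer, and the measured tissue was a biopsy of Longissimus lumborum, the loin muscle. Neither group carried a treatment or a genetic change in the labels, and they state neither the age of the animals nor the time of the biopsy. What the fraction 2/3 measures is likewise not spelled out beyond being a degree of dark-cutting. Each steer gave 1 small RNA library, so a replicate is 1 animal.

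Dark-cutting beef comes from animals whose muscle glycogen was low at slaughter. Little lactic acid then forms after death, muscle pH stays high, and the meat is dark, firm and dry. A microRNA (miRNA) is a short RNA, cut from a hairpin, that pairs with messenger RNAs mainly through a seed near its 5′ end and lowers the output of those messengers. Skeletal muscle is dominated by a few miRNAs of its own, among them miR-1, miR-133a, miR-206 and miR-499, which act in muscle differentiation, regeneration and fibre type. Blood, vessel and connective tissue cells in a biopsy add their own miRNAs, such as miR-142, miR-126, miR-143 and miR-199a.

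Library depth did not set the 4 steers apart. Their total counts ran from 2988760 to 3433690, inside the normal range of 1427820 to 4535680. The share of counts held by miR-1 was 84.7% ± 1.23 (SD, n = 4) in degree 2/3 and 84.2% ± 3.04 (SD, n = 53) in normal steers. In an exact two-sided permutation test over the steers, none of 5 library measures passed (smallest adjusted p = 0.853). The muscle list of miRNAs summed to between 855574 and 884349 CPM (counts scaled to a common library total) in the 4 steers. Of the defining miRNAs of other tissues, miR-122 of liver and miR-124a of nerve had 0 counts in all of them. The nerve miRNA miR-9 was detected. Its arm miR-9-5p was abundant enough to test (mean of 6.10 CPM in normal steers), and miR-9-3p had 7 counts over the 4 steers. The less restricted miR-194 and miR-128 of those lists were also abundant enough to test. Of the epithelial miRNAs, miR-205, miR-200a and miR-429 had 0 counts, and over the 4 steers miR-141 had 6 in all, miR-200c 4 and miR-200b 3. The summed level of each of 18 miRNA lists lay inside the normal range in all 4 steers, except that of epithelium in replicate 1 (2.62 CPM against at most 1.86). Its part in any result was not tested. Counts of every pair among the 57 libraries (1596 pairs) differed by more than sampling noise, with a chi-square of at least 6.30 times its degrees of freedom.

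Of the 272 miRNAs abundant enough to test, 1 differed between degree 2/3 and normal steers: miR-1260b, which was higher. The threshold was an adjusted p of 0.05 by edgeR's quasi-likelihood test, and that call made up 0.368% of the miRNAs tested. Before adjustment 7 miRNAs had a p under 0.05 (2.57% of those tested), namely miR-1260b, miR-206 and miR-154b with higher values (1.10%) and miR-340, miR-2285av, miR-425-3p and miR-708 with lower ones (1.47%). The log2 fold change was above 0 for 90 of 272 miRNAs (33.1%) and below 0 for 182 (66.9%), with a median of -0.07. This split moved with the scaling and with single steers. With the size factors of DESeq2 128 were above 0, and with total count alone 134 were. Under TMM scaling 144 of 271 were above 0 without replicate 1 and 140 of 270 without replicate 3, against 92 and 99 of 272 without replicate 2 or 4. Fold changes near 0 therefore carry no firm sign, and lists are read against the median of -0.07. Where a list is counted under another scaling or without a steer, it is read against all miRNAs in that same setting.

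**Figure D1:**
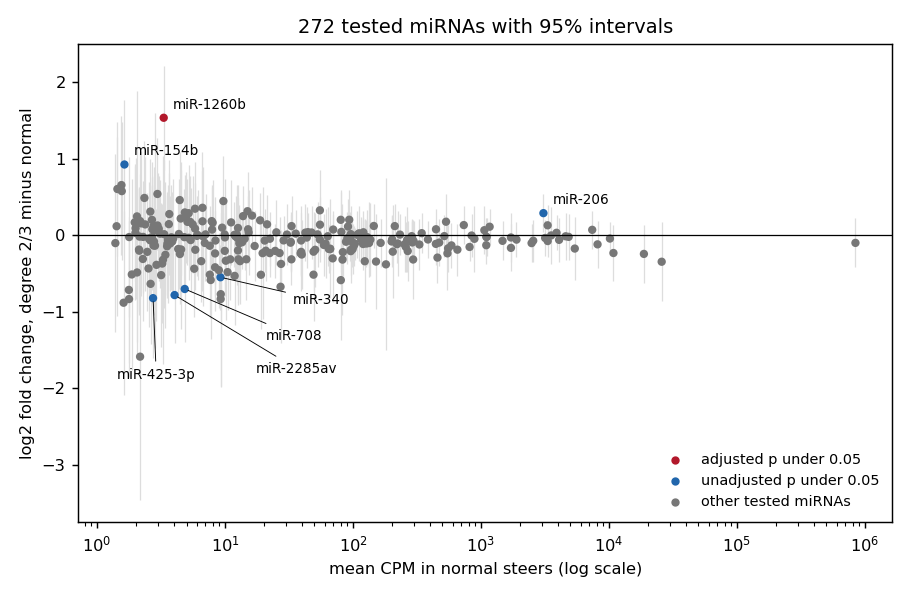
Log2 fold change of degree 2/3 minus normal (vertical axis) against mean CPM in the 53 normal steers (horizontal axis, log scale) for 272 miRNAs; bars are 95% intervals. The call, miR-1260b, is at 1.54, and the points draw together toward 0 as abundance rises.

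The level of miR-1260b rested on few reads. No read sequences were used, so which RNA those reads came from was not tested. The 4 steers had 48, 21, 20 and 39 counts (replicates 1 to 4), while the normal steers ran from 1 to 41 with a median of 9. Exact Poisson intervals at 95% were 35.4 to 63.6 counts for replicate 1 and 12.2 to 30.9 for replicate 3, and they cover counting error only. On the log2 CPM scale with TMM scaling, the 4 steers were at 3.58, 3.07, 2.77 and 3.73. Normal steers spanned 0.0044 to 3.17 with a median of 1.77.

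All 4 steers thus lay above the normal median, but the groups overlapped. Replicates 1 and 4 were above every normal steer, 2 normal steers were above replicate 2, and 5 were above replicate 3. Without TMM scaling, at plain CPM, replicate 1 was at 13.98, replicate 2 at 6.98, replicate 3 at 6.69 and replicate 4 at 12.3, and 1 normal steer at 15.4 was above them all. The log2 fold change was 1.54 ± 0.34 (SE), with a 95% interval of 0.85 to 2.22, or 2.90-fold (edgeR adjusted p = 0.00629). An exact two-sided permutation of the mean log2 CPM over all 395010 splits of these steers gave p = 5.57e-05 for a difference of 1.52, the smallest of the 7 miRNAs put to that test. In normal steers its level had no visible tie to depth (Pearson r = 0.0976, Spearman rho = 0.0184, n = 53, a description across libraries).

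The call on miR-1260b depended on replicates 1 and 4. Without replicate 1 the log2 fold change was 1.496 (adjusted p = 0.0870), and without replicate 4 it was 1.37 (adjusted p = 0.240). Leaving out any single normal steer kept it, with adjusted p from 0.00141 to 0.00779. Of the 4 steers, replicate 1 has an animal number below 600 and the other 3 have numbers of 600 or above, as have 35 of the normal steers. The labels do not say what these numbers stand for. Among animals numbered 600 or above the log2 fold change was 1.42 (adjusted p = 0.383), where 4 of 35 normal steers exceeded the lowest of the 3. Replicate 1 was above all 18 normal steers with lower numbers, which reached 3.00 log2 CPM.

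**Figure D2:**
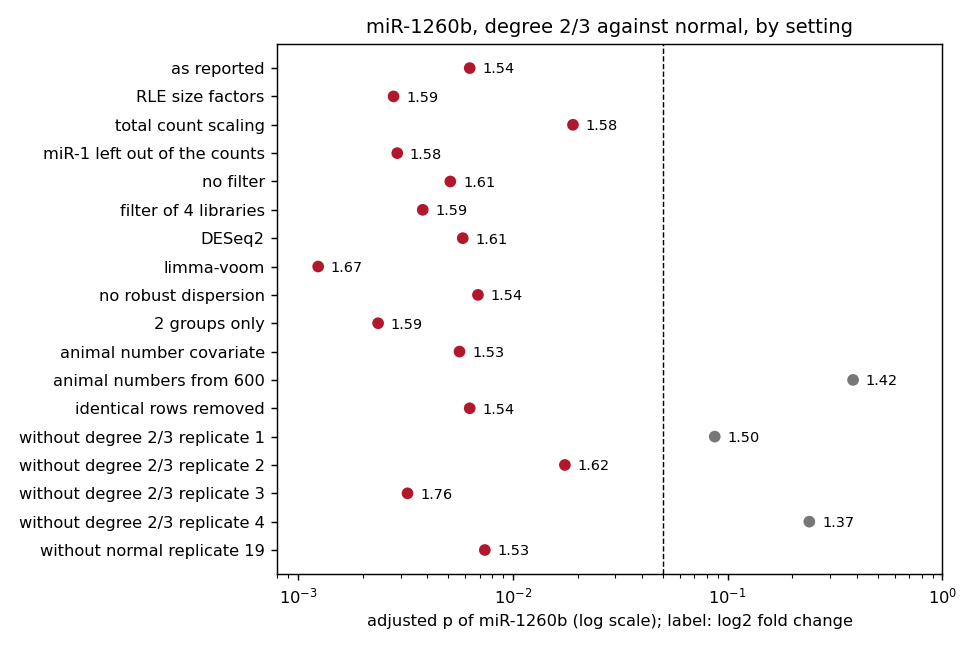
Adjusted p of miR-1260b (horizontal axis, log scale) for degree 2/3 against normal in each setting, with the log2 fold change beside each point; the dashed line is 0.05. The fold change stays between 1.37 and 1.76, while 3 settings, which drop replicate 1, replicate 4 or all animals numbered below 600, fall to the right of the line.

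Against the other dark-cutting steers nothing was shown to be particular to degree 2/3. With the equally weighted mean of degrees 1/4, 1/3 and 1/2 as the reference, miR-1260b was 1.21 ± 0.39 (SE) log2 units higher (unadjusted p = 0.00259, edgeR adjusted p = 0.704). No miRNA passed edgeR's test in that contrast (0% of 272), 5 had an unadjusted p under 0.05 (1.84%), and DESeq2 also made 0 calls, with 4 at an unadjusted p under 0.05.

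Among the muscle miRNAs, miR-206 stood highest in degree 2/3 relative to normal. This muscle-specific miRNA is known for promoting differentiation of satellite cells and regeneration of fibres. Its counts were 12087, 13028, 12178 and 11510 in replicates 1 to 4, against 4450 to 16420 in normal steers with a median of 9527. In log2 CPM replicates 2, 3 and 4 were at 12.24, 11.88 and 11.87 and replicate 1 at 11.48, with normal steers between 11.04 and 12.14 and a median of 11.61.

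Replicate 2 exceeded every normal steer, and replicate 1 lay below the normal median. Against normal, miR-206 was 0.29 ± 0.13 (SE) log2 units higher, or 1.22-fold, with an unadjusted p of 0.0237 that did not pass (edgeR adjusted p = 0.988). Without replicate 1 it was 0.47 (adjusted p = 0.0947). The miR-133b hairpin lies in the same transcript, and a ratio of 2 counts within a library does not depend on scaling. The log2 ratio of miR-206 to miR-133b was 4.02, 4.15, 4.41 and 3.58 in the 4 steers, against a normal median of 3.63 and a normal range of 2.26 to 4.20. The mean ratio differed by 0.45 (exact two-sided permutation p = 0.0165), and it did not pass over the 26 ratios computed (adjusted p = 0.428).

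The rest of the muscle list lay near or below the median of all miRNAs. Of its 7 members 6 were tested, and 1, miR-206, was above 0 (median -0.16), beside 33.1% of all miRNAs. Without replicate 1, 3 of 6 were above 0 (median 0.0049). None was called. The dominant miR-1 had a log2 fold change of -0.10 (95% interval -0.42 to 0.22) and miR-133a, its partner in muscle differentiation, -0.24 (-0.63 to 0.14). For miR-499, which is encoded in an intron of a myosin heavy chain gene, it was -0.17 (-0.59 to 0.24). The intervals of these 3 excluded a 2-fold difference in either direction. That of miR-208b, encoded in an intron of the slow myosin gene MYH7 and named after its values were seen, did not. Its log2 fold change was -0.59 (-1.36 to 0.19), the lowest of the list, with 153, 188, 160 and 181 counts against a normal median of 221.

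**Figure D3:**
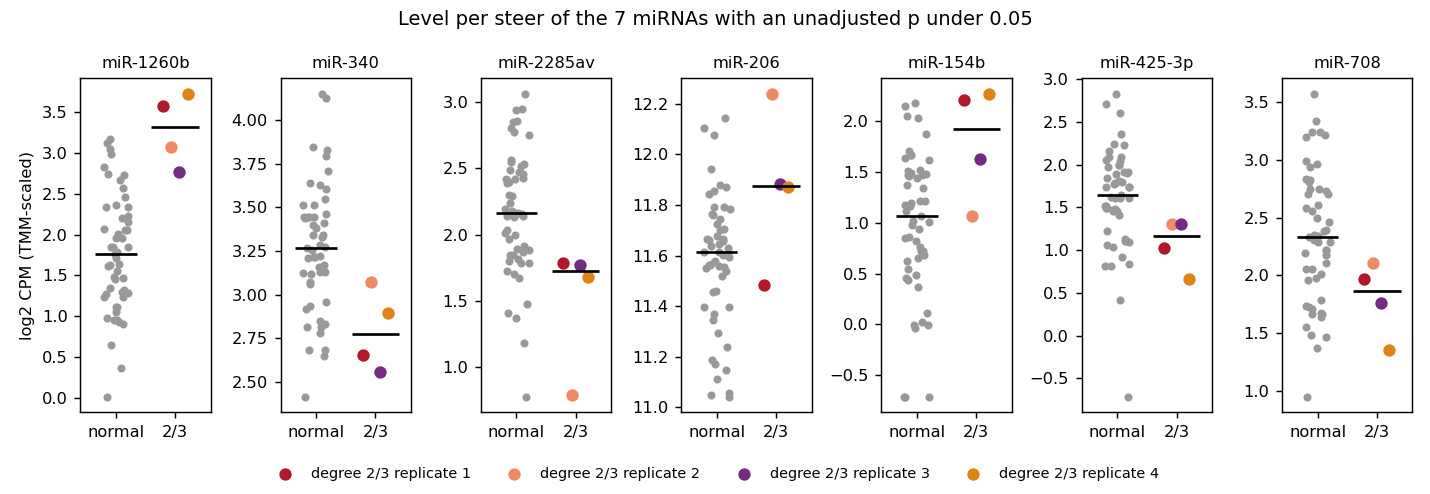
Log2 CPM with TMM scaling (vertical axis, its own range in each panel) of the 7 miRNAs with an unadjusted p under 0.05; grey points are the 53 normal steers, coloured points the 4 steers of degree 2/3, and black lines the group medians. In each panel the groups overlap, and miR-1260b has replicates 1 and 4 above all normal steers.

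The lower values of miR-340 were even across the 4 steers. Its counts were 24, 21, 17 and 21, against a normal median of 28 and a range of 12 to 69. In log2 CPM the steers were at 2.65, 3.07, 2.56 and 2.89, all below the normal median of 3.27 but inside the normal range, whose lowest value was 2.41. The log2 fold change of miR-340 was -0.55 ± 0.21 (SE), with an unadjusted p of 0.0113 that did not pass (edgeR adjusted p = 0.988). With total count scaling 0 of the 272 miRNAs were lower at an unadjusted edgeR p under 0.05. Neither miR-340 nor the other lower miRNAs kept such a p there. With the size factors of DESeq2, 2 miRNAs were lower at that p, against 4 under TMM scaling.

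The other lower miRNAs with an unadjusted p under 0.05 were rarer. The ruminant miR-2285av had 12, 3, 9 and 8 counts (normal median 12, range 3 to 31) and a log2 fold change of -0.78 ± 0.31 (SE). The minor arm miR-425-3p had 6, 5, 6 and 3 counts (normal median 8) and a log2 fold change of -0.82 ± 0.39. That of the abundant arm miR-425-5p was 0.04 ± 0.13. For miR-708, encoded in an intron of the teneurin gene TENM4, counts were 14, 10, 9 and 6 (normal median 13), with a log2 fold change of -0.70 ± 0.35. On the log2 CPM scale with TMM scaling, all 4 steers were below the normal median and inside the normal range for miR-2285av, miR-425-3p and miR-708. In raw counts this did not hold for miR-2285av and miR-708. In the exact two-sided permutation of mean log2 CPM, miR-425-3p (p = 0.0802) and miR-708 (p = 0.0772) did not fall under 0.05, while miR-2285av did (p = 0.0109). That test also gave p = 0.0133 for miR-340, 0.0288 for miR-154b and 0.0418 for miR-206, all unadjusted.

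On the higher side, miR-154b of the imprinted DLK1-DIO3 cluster had 17, 4, 8 and 13 counts, against 0 to 17 in normal steers with a median of 4. Its log2 fold change was 0.92 ± 0.43 (SE), and it came mostly from replicates 1 and 4, at 2.21 and 2.27 log2 CPM, with replicate 2 at 1.07 beside a normal median of 1.06. None of these 4 passed (edgeR adjusted p = 0.988 for each). A p that misses the threshold does not show that they were equal.

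How often the 4 steers fell together was counted for every miRNA. All 4 were above the normal median for 7 of the 272 (2.57%) and all 4 below it for 18 (6.62%). Beyond miR-1260b and miR-154b, the 7 held miR-27a-5p and 4 miRNAs named after their values were seen, miR-2887, miR-151-5p, miR-19a and miR-23a. For no miRNA were the 4 steers all outside the normal range on one side (0% of 272). The even group of low values held miR-148a, at 8.61, 8.76, 8.31 and 8.55 log2 CPM with a normal median of 8.78, and miR-186, at 9.47, 9.63, 9.64 and 9.36 with a normal median of 9.68. Their log2 fold changes were -0.29 ± 0.16 (SE) and -0.15 ± 0.09, and neither passed.

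Further down the ranking by p, log2 fold changes were -0.48 ± 0.25 (SE) for miR-130a, a miRNA of vessels and blood-forming cells, -0.46 ± 0.25 for miR-6119-3p and -0.67 ± 0.37 for miR-885. The ruminant miR-2285o was at -0.52 ± 0.29, miR-218, hosted by the SLIT genes, at -0.53 ± 0.33, and miR-2336 at -0.64 ± 0.39. For miR-362-3p, of a cluster in an intron of CLCN5, the value was -0.38 ± 0.21, and for miR-1249 it was -0.83 ± 0.51. The lowest log2 fold change of all, that of miR-1246, was -1.59 ± 0.94, from 2, 1, 0 and 6 counts against a normal median of 4 and a maximum of 39. Next came miR-365-5p at -0.88 ± 0.60, with 0, 2, 2 and 7 counts, and miR-204 at -0.83 ± 0.57. After miR-1260b and miR-154b, the highest was that of miR-1247-5p, at 0.66 ± 0.46. These values moved with single steers: without replicate 4 that of miR-1246 was -2.72 and that of miR-365-5p -1.90, while without replicate 1 the latter was -0.34. None passed edgeR's test (adjusted p = 0.988).

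MiRNAs of white blood cells had 7 of 8 members below 0, with a median log2 fold change of -0.28, beside 66.9% below 0 and a median of -0.07 over all miRNAs. Without replicate 3, 5 were below 0 (median -0.13). No member was called. For miR-142-5p, of blood-forming cells, the 4 steers were at 5.49, 5.22, 4.74 and 5.02 log2 CPM, each below the normal median of 5.53 and inside the normal range of 4.45 to 7.16. Its log2 fold change was -0.52 ± 0.30 (SE), while that of the other arm, miR-142-3p, was -0.02 ± 0.46. The 1 member above 0 was miR-146b, at 0.09 ± 0.28. The immune-response miRNA miR-146a had a value of -0.32 ± 0.36, with replicate 2 at 6.91 above the normal median of 6.17 and replicate 3 at 4.91 below the lowest normal steer, at 5.11. In a bulk biopsy, fewer cells of a type and less of a miRNA per cell cannot be told apart.

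Of the red blood cell list, 5 of 7 tested members were below 0 (median -0.09), beside 66.9% of all miRNAs. Without replicate 1 the count was 3. The erythroid miR-144 was at -0.77 ± 0.61 (SE), where normal replicate 19 carried 339 counts of it and the 4 steers 13, 27, 12 and 17. Without that normal steer its log2 fold change was -0.46. The other members named were miR-16a at -0.19 ± 0.17 and miR-486, made in muscle and red cells from an intron of ANK1, at 0.18 ± 0.18.

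Vessel and connective tissue miRNAs showed no call either. Endothelial miR-126-5p was at 8.97, 8.90, 9.02 and 8.89 log2 CPM, close together and below the normal median of 9.11, with a log2 fold change of -0.17 ± 0.15 (SE). The abundant arm miR-126-3p of the same hairpin was at -0.02 ± 0.15, with a sign that changes with the scaling, and miR-221 at -0.31 ± 0.27. The other tested endothelial member, miR-222, was at 0.17 ± 0.28, so 3 of 4 were below 0, beside 66.9% of all miRNAs. Of smooth muscle and pericytes, miR-143 had a log2 fold change of -0.35 ± 0.26 and miR-145 one of -0.11 ± 0.22.

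All 6 tested fibroblast miRNAs were below 0 (median -0.22), beside 66.9% of all miRNAs, and 5 were under the other scalings tried. Those of miR-199a, miR-199b and miR-199c may share reads, so the 6 are not separate observations. The median was -0.35 without replicate 1, and -0.06 without replicate 2 or without replicate 4. Here miR-214 was at -0.52 ± 0.36 (SE), miR-199a-3p at -0.24 ± 0.24 and miR-21-5p at -0.04 ± 0.12. The 4 steers differed widely in miR-214, with 108, 14, 44 and 20 counts against 22 to 283 in normal steers. Replicates 2 and 4 fell below every normal steer in counts, and replicate 1 lay above the normal median.

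In the glucose and lipid metabolism list 6 of 7 tested members were above 0 (median 0.12), beside 33.1% of all miRNAs. It held miR-378, encoded in an intron of PPARGC1B and known for its part in oxidative metabolism, at 0.13 ± 0.13 (SE). Its 4 steers were at 12.09, 11.61, 11.94 and 11.68 log2 CPM around a normal median of 11.69, so replicates 1 and 3 were high and replicates 2 and 4 were not. The relative miR-378b, which may share its reads, was at 0.31 ± 0.26, and miR-103, of insulin sensitivity, at 0.0081 ± 0.14. The count was 6 of 7 under each scaling tried. Over all miRNAs, 128 of 272 were above 0 with the size factors of DESeq2 and 134 with total count. Without replicate 4 the count of the list was 5 (median 0.06), beside 99 of 272 miRNAs. Reads may be shared among miR-378, miR-378b, miR-378c and miR-378d, so the 7 are not separate observations. No member passed.

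In the muscle wasting list 5 of 12 tested members were above 0 (median -0.01), beside 33.1% of all miRNAs, and 7 or 8 were under the other scalings. Over all miRNAs, 128 of 272 were above 0 with the size factors of DESeq2 and 134 with total count. Without replicate 1 the count of the list was 9, beside 144 of 271 miRNAs. Without replicate 3 it was 10, beside 140 of 270 miRNAs. The rare arm miR-27a-5p had 14, 9, 15 and 19 counts against a normal median of 9, and a log2 fold change of 0.54 ± 0.37 (SE). That of the abundant arm miR-27a-3p was -0.05 ± 0.22. The abundant miR-24-3p and miR-27b were at -0.0031 ± 0.19 and -0.08 ± 0.10. The hypoxia miRNA miR-210 had 11, 3, 5 and 12 counts against a normal median of 5 (log2 fold change 0.58 ± 0.45, or 0.23 without replicate 4). Among nerve miRNAs the values were -0.12 ± 0.17 for miR-128 and -0.03 ± 0.39 for miR-338, and the liver list miR-194 at -0.08 ± 0.16 and miR-192 at 0.03 ± 0.19. No member of these lists was called, and no epithelial miRNA had enough counts to be tested.

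The large families had medians close to that of all miRNAs, of which 33.1% were above 0. In the let-7 family, known for its rise during differentiation, 2 of 10 were above 0 (median -0.08). Without replicate 3 that count was 10 (140 of 270 over all miRNAs) and without replicate 1 it was 8 (144 of 271). Without replicate 2 it was 0 (92 of 272). The direction of the family turned with 1 steer, while the split of all miRNAs shifted as well. Without replicate 3 the family median was 0.04, beside 0.0086 over all miRNAs. Values were 0.07 ± 0.12 (SE) for let-7f, with let-7a-5p at -0.06 ± 0.15 and let-7i at -0.17 ± 0.15. The miR-30 family had 0 of 7 above 0 (median -0.07), with miR-30e-5p at -0.12 ± 0.15 and miR-30a-5p at -0.01 ± 0.15. That count was 4 of 7 with total count scaling (134 of 272 over all miRNAs) or without replicate 1 (144 of 271). Of the miR-17-92 cluster and its relatives, 2 of 10 were above 0 (median -0.10), with miR-92a at -0.03 ± 0.12, miR-25 at -0.09 ± 0.14 and miR-19b at -0.23 ± 0.15. For miR-19b the 4 steers were at 4.38, 4.29, 4.26 and 4.35 log2 CPM, all below the normal median of 4.48.

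The miR-181 family, which acts in myoblast differentiation, had 1 of 4 members above 0, beside 33.1% of all miRNAs. Its median was -0.22, or -0.08 without replicate 4. Its miR-181b was at 5.23 and 5.05 log2 CPM in replicates 1 and 3, above the normal median of 5.01, and at 4.26 and 4.13 in replicates 2 and 4, below all 53 normal steers. Its log2 fold change was -0.32 ± 0.17 (SE), and that of miR-181a was -0.13 ± 0.15. The DLK1-DIO3 cluster had 13 of 28 tested members above 0 (median -0.01). Without replicate 4 it had 2 of 28 (median -0.32), beside 99 of 272 miRNAs. Without replicate 3 it had 22 of 28 (median 0.17), beside 140 of 270 miRNAs. Among its members miR-411a was at -0.21 ± 0.20 and miR-379 at -0.06 ± 0.24. For miR-411a replicate 4 was at 8.55 log2 CPM and replicate 3 at 7.23, around a normal median of 8.03, and replicate 3 was below the lowest normal steer, at 7.30. Of the 148 ruminant miR-2284 and miR-2285 rows 18 were tested, and 5 were above 0 (median -0.08), or 10 without replicate 1, with miR-2284x at -0.11 ± 0.11 and miR-2285bf at -0.22 ± 0.26.

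**Figure D4:**
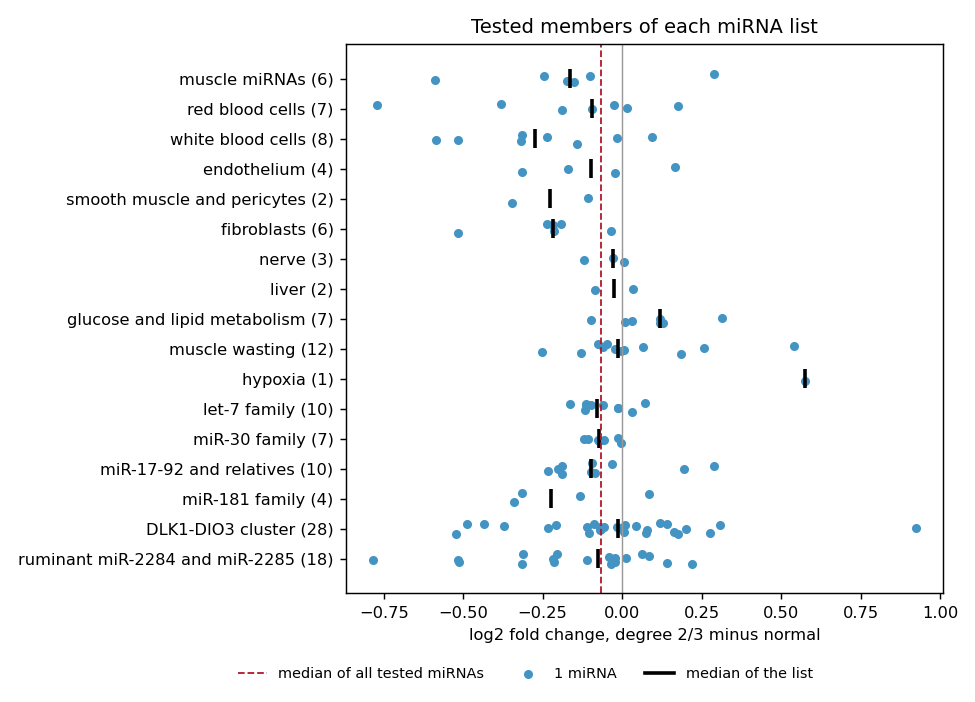
Log2 fold change of degree 2/3 minus normal (horizontal axis) of the tested members of 17 miRNA lists (numbers in brackets); each point is 1 miRNA, black bars are list medians, and the dashed line is the median of all 272 miRNAs, -0.07. White blood cell members lie mostly to the left (median -0.28) and glucose and lipid metabolism members to the right (median 0.12).

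Among the 10 most abundant miRNAs the shares of total counts in the 4 steers stayed inside the normal range. The smooth muscle miRNA miR-143 held 2.31%, 2.21%, 1.88% and 2.15% of counts, against a normal median of 2.49%. For miR-26a the shares were 1.35%, 0.851%, 1.21% and 0.750% with a normal median of 0.946%, so replicates 1 and 3 were high and replicates 2 and 4 low. Its log2 fold change was -0.04 ± 0.11 (SE), and that of miR-22-3p was -0.23 ± 0.18.

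As whole profiles, the 4 steers were neither far from the normal steers nor alike. The numbers of miRNAs more than 2 normal SD from the normal mean were 7, 15, 10 and 16, while a normal steer set against the other normal steers had a median of 13 (range 2 to 43). The median absolute deviation over the 272 miRNAs was 0.27 to 0.29 log2 units in the 4 steers and 0.28 in the median normal steer. Pearson correlations of these deviations between pairs of the 4 steers ran from -0.26 to 0.33 with a median of -0.13. They are a description over 272 miRNAs that share each library's scaling. The highest was between replicates 1 and 3 (0.33), followed by replicates 2 and 4 (0.19). Among the 1378 normal pairs the central 95% ran from -0.32 to 0.33.

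Abundance set how small a difference could have been seen. The median SE of the log2 fold change was 0.13 for the 28 miRNAs above 1000 CPM in normal steers, 0.15 for the 53 from 100 to 1000 CPM, 0.21 for the 82 from 10 to 100 CPM and 0.36 for the 109 below 10 CPM. A 2-fold difference lay outside the 95% interval for 28 of 28, 52 of 53, 74 of 82 and 65 of 109 of them. A 1.5-fold difference lay outside it for 119 of all 272, and for 5 of the 109 rarest. For miRNAs of low abundance with 4 steers, differences under 2-fold were often not detectable at this depth. Of 1030 rows in the table, 309 had a count in all 4 steers. In 7 rows a count was seen in these steers and in no normal steer, with at most 2 counts in all.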

How the data were processed

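Small RNA libraries of muscle RNA were made with a NEXTflex kit, per the labels' protocols. The deposited table holds a raw read count for each bovine mature miRNA in each steer, per the file headers and values. FastQC, Trimmomatic 0.32 and DESeq2 1.34.0 are named in the submitters' processing notes. No source used here names the aligner, counter, miRNA reference or genome build, and no sequences or positions are reported. Near-identical miRNAs can share reads.

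Groups came from the phenotype label, and the animal number in each title matched columns to steers. A miRNA was tested if the equivalent of 10 counts was reached in 8 libraries and 15 counts in all, which left 272 rows holding 99.99% of counts. One fit of all 78 libraries was made with edgeR 4.0.16 in R 4.3.3 (TMM scaling, robust quasi-likelihood test, Benjamini-Hochberg adjustment over the 272). Log2 CPM used a prior count of 2, and ratios a pseudocount of 0.5. DESeq2 1.42.0 and limma-voom 3.58.1 were alternatives. The code was tested on simulated data. The authors' table of all dark-cutting steers was not used.

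Named miRNAs were every call, those with the 20 smallest p-values, the 10 with the highest mean in normal steers, per list the 2 most abundant and the smallest p, the other arm of the leading miRNAs and the 3 largest differences each way. A clause on miRNAs with the same seed was not applied, since no sequences were used. The lists and members were chosen with earlier results of these data known, and the ratios were added after the values were seen. No value depends on the replicate number, which only names an animal.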

Additional observations from a re-analysis of the deposited data

Results flagged for a closer look

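In 69 sets of 4 values (64 miRNAs and 5 library measures) the highest or lowest steer of degree 2/3 was checked against the spread of the other 3. About 1 set in 20 is expected to stand out by chance, and 4 did. Replicate 2 had the lowest miR-2285av, at 0.78 log2 CPM against 1.68 to 1.79 in the other 3. Replicate 1 had the lowest miR-2285o, at 1.79 against 2.69 to 2.87. Replicate 2 also had the highest miR-16a, at 9.53 against 8.99 to 9.07, and the highest miR-192, at 5.94 against 5.28 to 5.33. All 4 values lay inside the range of the normal steers.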

How the results depend on the processing

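The count of called miRNAs for degree 2/3 against normal was 1 except among animals numbered 600 or above and without replicate 1 or 4 of degree 2/3, where it was 0. In those the log2 fold change of miR-1260b was 1.42, 1.496 and 1.37, with fewer steers in each. Over all steers left out in turn it ran from 1.37 to 1.76, and the count from 0 to 1. Before adjustment, 31 of 741 miRNAs had a p under 0.05 with no filter, against 7 of 272. Total count scaling gave 3, all with higher values in degree 2/3. No paired analysis was possible because the labels give the groups no shared replicate numbers. Of 63 miRNAs named by the rule and not called, 40 kept their sign in each of the 17 settings that tested them. Rare ones such as miR-210 and miR-1247-5p were not tested in every setting. The other 23 turned in at least 1 setting, none with a value beyond 0.32 on the log2 scale as reported, and 0 became calls. The cause was not tested. For uncalled miRNAs only 5 steers were left out in turn, the 4 of degree 2/3 and normal replicate 19. Among those that kept their sign, this gave -2.72 to -1.14 for miR-1246, -1.90 to -0.34 for miR-365-5p, -1.04 to -0.27 for miR-214, -1.34 to -0.48 for miR-1249 and -1.15 to -0.33 for miR-2336. With the size factors of DESeq2 the values that turned were 0.0151 for miR-26a, 0.035 for miR-126-3p, 0.0471 for miR-30a-5p, 0.0224 for miR-21-5p, 0.0392 for miR-338, 0.0509 for miR-24-3p and 0.0299 for miR-92a. With total count scaling the values that turned were 0.00891 for miR-1, 0.0342 for miR-26a, 0.0376 for miR-126-3p, 0.10 for miR-30a-5p, 0.0437 for miR-21-5p, 0.0719 for miR-338, 0.0252 for miR-24-3p, 0.0429 for miR-92a and 0.00537 for miR-379. With miR-1 left out of the counts the values that turned were 0.0186 for miR-126-3p, 0.0264 for miR-30a-5p, 0.0066 for miR-21-5p, 0.0107 for miR-338, 0.0407 for miR-24-3p and 0.0123 for miR-92a. With no filter on low counts the values that turned were 0.0400 for miR-26a, 0.0576 for miR-126-3p, 0.077 for miR-30a-5p, 0.0455 for miR-21-5p, 0.059 for miR-338, 0.0698 for miR-24-3p, 0.00248 for miR-27b, 0.0178 for let-7a-5p, 0.061 for miR-92a and 0.0137 for miR-379. With a filter in 4 libraries the values that turned were 0.0105 for miR-26a, 0.0307 for miR-126-3p, 0.0416 for miR-30a-5p, 0.0177 for miR-21-5p, 0.0222 for miR-338, 0.0505 for miR-24-3p and 0.0262 for miR-92a. With DESeq2 the values that turned were 0.0151 for miR-26a, 0.035 for miR-126-3p, 0.0471 for miR-30a-5p, 0.0224 for miR-21-5p, 0.034 for miR-338, 0.0509 for miR-24-3p and 0.0299 for miR-92a. With limma-voom the values that turned were 0.00135 for miR-126-3p and 0.00136 for miR-30a-5p. With the 2 groups alone the values that turned were 0.00492 for miR-26a, 0.0266 for miR-126-3p, 0.0396 for miR-30a-5p, 0.0171 for miR-21-5p, 0.0216 for miR-338, 0.0461 for miR-24-3p and 0.0193 for miR-92a. With animal numbers from 600 the values that turned were 0.0274 for miR-1, 0.0104 for miR-30e-5p, 0.0315 for miR-499, 0.0179 for miR-30a-5p, 0.0436 for miR-128, -0.0494 for miR-103, 0.0323 for miR-24-3p, 0.0473 for let-7a-5p and 0.11 for miR-92a. Leaving out in turn the 4 steers of degree 2/3 and normal replicate 19 gave log2 fold changes of -0.18 to 0.0504 for miR-1, -0.10 to 0.0864 for miR-126-3p, -0.0552 to 0.086 for miR-30a-5p, -0.0685 to 0.0361 for miR-21-5p, -0.21 to 0.0835 for miR-194, -0.18 to 0.20 for miR-24-3p, -0.20 to 0.0911 for let-7a-5p, -0.16 to 0.0976 for miR-92a, -0.15 to 0.0205 for miR-25. The same leave-outs gave -0.35 to 0.19 for miR-379, -0.17 to 0.0112 for miR-2284x, -0.0778 to 0.21 for let-7f, -0.46 to 0.25 for miR-338, -0.16 to 0.16 for miR-192, -0.72 to 0.00266 for miR-146a, -0.11 to 0.0224 for miR-27b, -0.25 to 0.00782 for let-7i, -0.52 to 0.0176 for miR-411a and -0.0433 to 0.0568 for miR-26a.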
